A study of Mus musculus with 14 samples.

Results

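The regions described here held an accessibility peak in 4T1 cells after 12 h and after 24 h of hypoxia and in no other peak list of the time course. They were found by merging all overlapping or touching peak intervals of the 7 deposited lists into 108795 regions. A region was kept if it had a peak in the 12 h and 24 h lists and none in the normoxia, 6 h, 36 h, 48 h and 72 h lists. The rule left 2082 regions, 1.91% of all merged regions. The regions were thus selected on presence and absence of peaks, and their strength at 12 and 24 h is given below as a description and supports nothing.

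The experiment was bulk ATAC-seq on 4T1, an established line of mouse mammary tumor cells, which were fixed before transposition and were labelled as processed without antibody. Cells were kept at 1% O2 for 6, 12, 24, 36, 48 or 72 h, and the normoxic culture served as the control (the design text named the assay as single-cell, the sample labels as bulk). The labels gave no oxygen level for normoxia, and the control of a flow cytometry time course in the same line was kept at 5% oxygen. Each of the 7 conditions had 2 samples, 14 in all, but each deposited list was called on the merged reads of its condition, so no value below has a spread between replicates and no test between conditions was possible. The lists held from 49006 peaks (6 h) to 81732 (12 h), with 71656 at 24 h and 60070 in normoxia.

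ATAC-seq marks DNA that transposase can reach, which in most cells means promoters, enhancers and insulators. In low oxygen the HIF-1 and HIF-2 transcription factors escape degradation and bind a short core sequence near genes of glycolysis, angiogenesis and pH control. AP-1, the family of FOS and JUN dimers, is stress and growth-factor responsive and occupies many distal enhancers of epithelial tumor cells. As a check on the cell type, the promoters of all 4 epithelial genes examined (Epcam, Krt8, Krt18 and Cdh1) held a peak in every list. Of 4 immune genes, 0 had a promoter peak at 12 or 24 h. Of the fibroblast genes, 2 of 3 (Col1a1 and Pdgfra) had one at both times, and Pecam1, 1 of 3 endothelial genes, had one at 12 h and none at 24 h.

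Of the leading 12 regions 5 are printed to show what such an element looks like, with the strongest region that had a CTCF match, each as the 151 bp around its 24 h summit on the plus strand of mm9, 5′ to 3′. Capitals mark matches to the transcription factor sequences searched for in all regions. The region near Slit2 (chr5:47731031-47731718) has an AP-1 match, TGAGTCA. The region near Kitl (chr10:99370700-99371083) carries a HIF core on the reverse strand, CACGC. The region in an intron of Oca2 (chr7:63571025-63571531) has TEAD, HIF and AP-1 matches in that order. The region near Nmt2 (chr2:3183633-3184117) has AP-1, E-box and C/EBP matches. The region in an intron of Glp2r, inside the overlapping body of Gas7 (chr11:67489705-67490098), has a CTCF match followed by E-box and RUNX matches. The region near Zwint (chr10:72107992-72108470) has none of the searched sequences.
Slit2: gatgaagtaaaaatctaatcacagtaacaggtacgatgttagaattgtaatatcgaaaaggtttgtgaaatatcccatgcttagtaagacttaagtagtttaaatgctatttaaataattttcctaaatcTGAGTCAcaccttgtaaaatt
Kitl: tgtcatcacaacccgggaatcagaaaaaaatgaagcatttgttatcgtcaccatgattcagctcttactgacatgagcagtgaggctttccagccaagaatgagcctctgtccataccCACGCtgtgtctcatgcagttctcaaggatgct
Oca2: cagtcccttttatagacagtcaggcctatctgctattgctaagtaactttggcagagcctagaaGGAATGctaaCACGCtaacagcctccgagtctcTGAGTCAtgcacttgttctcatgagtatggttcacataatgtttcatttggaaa
Nmt2: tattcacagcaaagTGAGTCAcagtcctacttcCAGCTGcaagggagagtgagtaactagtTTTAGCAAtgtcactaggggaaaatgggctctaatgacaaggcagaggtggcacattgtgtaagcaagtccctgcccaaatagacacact
Gas7: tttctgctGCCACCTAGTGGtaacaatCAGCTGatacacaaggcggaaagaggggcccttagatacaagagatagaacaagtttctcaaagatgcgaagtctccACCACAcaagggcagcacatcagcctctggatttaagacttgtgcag
Zwint: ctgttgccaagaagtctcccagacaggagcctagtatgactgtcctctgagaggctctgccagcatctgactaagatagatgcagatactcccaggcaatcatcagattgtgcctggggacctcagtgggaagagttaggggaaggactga

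In the lists as deposited, peaks shared by exactly 2 lists were most often shared by 12 and 24 h. In all, 11648 regions had peaks in exactly 2 of the 7 lists, and the 2082 regions of 12 and 24 h were 17.9% of them. The next most frequent of the 21 pairs was 12 and 48 h with 1725 regions, followed by 48 and 72 h with 1186 and normoxia and 12 h with 1131. The 12 h list was the longest and the 6 h list the shortest, and pairs with 6 h held between 59 and 323 regions. The order depended on list length. With every list cut to the number of its strongest peaks that the 6 h list held, 12 and 24 h had 483 of 7058 such regions (6.84%), the third of the 21 pairs, behind 48 and 72 h with 649 and 36 and 72 h with 528. With the 20000 strongest peaks of every list it had 156 of 2714 (5.75%), the fifth, and with a −log10 q of 5 or more in every list it was second with 1335, behind 12 and 48 h with 1841.

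**Figure D1:**
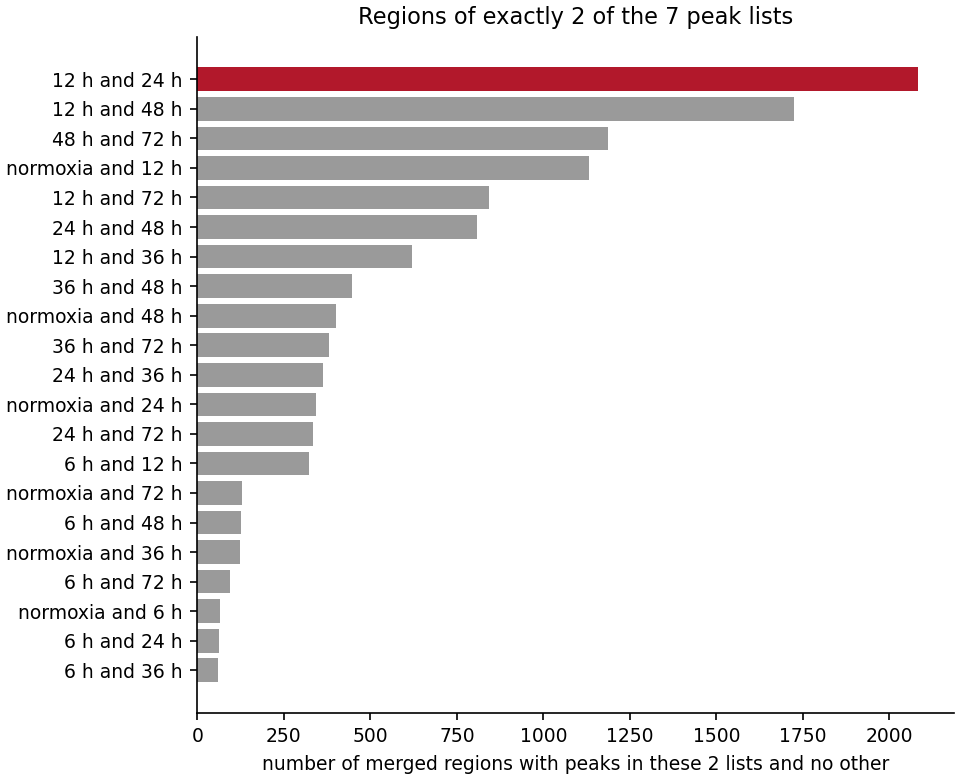
Number of merged regions (horizontal axis) that had peaks in exactly 2 of the 7 lists, for each of the 21 pairs. The pair of 12 and 24 h (red) held 2082 regions, ahead of 12 and 48 h with 1725, in the lists at their deposited lengths.

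Most chromatin that was open at 12 and 24 h was open at other times too. A peak at both times was present in 61230 regions, of which 59.0% had a peak in all 7 lists and 3.4% had none in the other 5. A single further list was seen in 3421 regions. This was the 48 h list in 1487 of them and the normoxia list in 749, and the lists of 36, 72 and 6 h followed with 564, 423 and 198. The regions with a peak at 12, 24 and 48 h were thus the closest in number to those with 12 and 24 h alone.

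The 2082 regions were weak peaks at both times. Strength is given as −log10 q of the peak caller, where q is the false discovery rate, and as fold enrichment over local background. At 12 h the −log10 q ranged from 1.31 to 25.5 with a median of 4.35, against a median of 11.2 for the whole 12 h list. At 24 h it ranged from 1.31 to 21.1 with a median of 3.96, against 10.5 for the whole 24 h list. Only 66 of the regions at 12 h and 37 at 24 h stood above their list's median. A −log10 q of 5 or more was reached by 786 regions at 12 h, by 509 at 24 h and by 241 at both times, and 8 regions reached 10 at both times. The reads stacked at the summit, recovered from the fold and p-value of each peak, had a median of 13 at 12 h and 11 at 24 h.

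The threshold of peak calling lay close for some of them. In 120 regions (5.76%) the weaker of the 2 peaks had a −log10 q under 1.5, where the lowest value in the lists was 1.3. Just outside the rule, 75 of the 3421 regions with 1 further list (2.19%) were left out by a further peak under 1.5, whereas in 1222 (35.7%) that peak reached 5 or more.

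By fold enrichment the times were close, with more regions stronger at 12 h by −log10 q. The −log10 q was higher at 12 h in 1156 regions and at 24 h in 926. Fold enrichment had a median of 3.89 at 12 h and 3.87 at 24 h, and it was higher at 24 h in 1058 regions (50.8%) and higher at 12 h in 1023. The ranks of the 2 folds were only loosely related across the 2082 regions (Spearman rank correlation 0.263, a description). These regions come from the same genome and the same pair of libraries. The correlation was 0.32 over the 3421 regions with 1 further list. It was 0.85 over the 36113 regions of all 7 lists. The rule asked for overlap, not for a shared summit. The 12 and 24 h summits were a median of 56 bp apart, and 45.7% (exact 95% interval 43.5 to 47.8) lay within 50 bp of each other. In regions with 1 further list the figures were 53 bp and 47.6% (45.9 to 49.3), and in regions of all 7 lists, which had higher peaks, 28 bp and 73.2%.

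**Figure D2:**
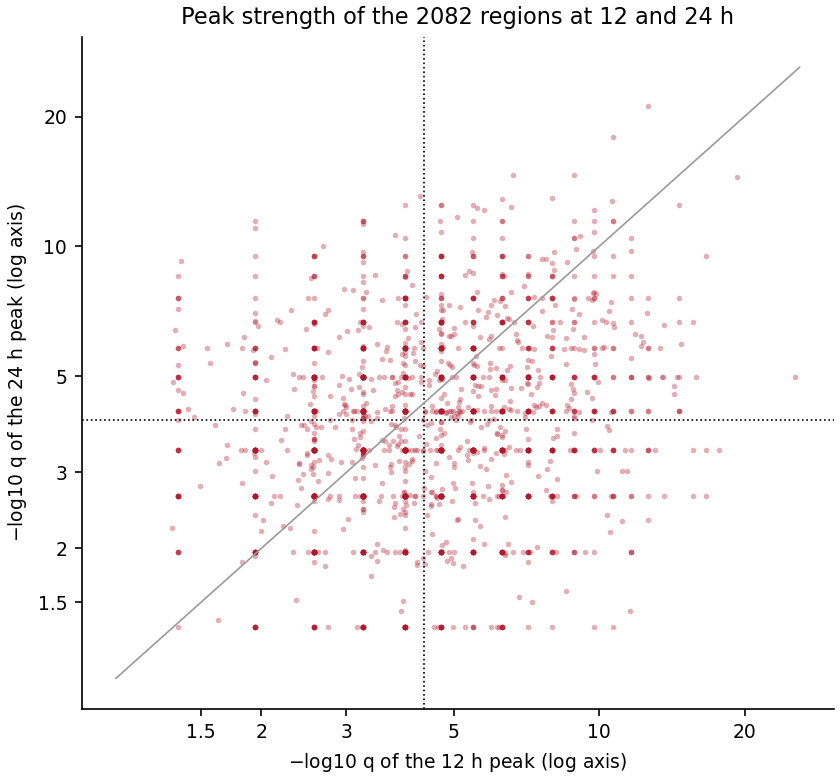
Strength of the 2082 regions, with −log10 q of the 12 h peak on the horizontal axis and of the 24 h peak on the vertical axis (both log axes). Points are regions, dotted lines the medians (4.35 and 3.96) and the grey line equal values. Values fall in steps because a whole number of reads sits on a shared background, and few regions are high at both times.

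The best-supported regions were mostly intergenic or intronic. By the mean rank of −log10 q in the 2 lists, the first was 107181 bp from the nearest coding start, that of Kitl, which encodes the ligand of the receptor KIT. It had a −log10 q of 19.3 at 12 h and 14.5 at 24 h, from 49 and 41 reads. Its local background was raised, at 8.44 and 7.84 reads against a genome-wide 2.34 and 1.85, and a region of all 7 lists lay 1416 bp away. The region near Slit2, the gene of a secreted guidance ligand for ROBO receptors, stood alone. It was 642676 bp from the Slit2 start and 29857 bp from any region of all 7 lists, with a −log10 q of 12.6 at 12 h and 21.1 at 24 h from 22 and 29 reads. That 24 h value was the highest of all 2082 regions.

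The others of the leading 6 were mixed in setting. The region 9123 bp from Zwint, which encodes a kinetochore protein, had a −log10 q of 10.7 and 17.9 at 12 and 24 h. A region of the X chromosome (chrX:82688829-82689362), 129999 bp from Tab3, the gene of an adaptor of the kinase TAK1, had 14.6 and 12.5. The region in Oca2, which encodes a melanosome membrane protein, had 16.7 and 9.49. The region in an intron of Vopp1 (chr6:57758882-57759278) had 10.7 and 12.7 on a raised background of 9.02 and 8.04 reads, 2586 bp from a region of all 7 lists. Within 15 kb of the summits near Slit2 and Tab3 no list had another peak, while the regions near Kitl, Zwint and Vopp1 had peaks of all 7 lists in that span.

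**Figure D3:**
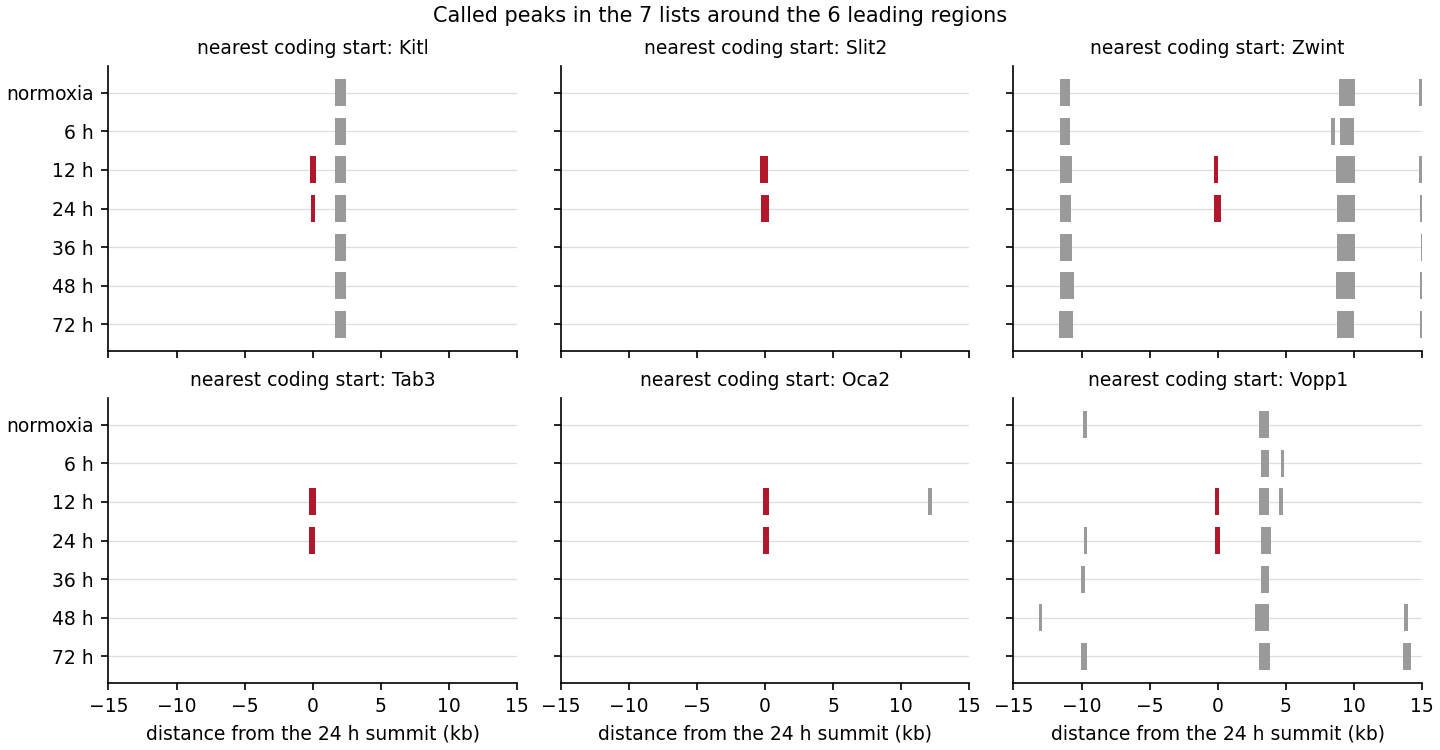
Called peaks of the 7 lists (rows) within 15 kb of the 24 h summit of the 6 leading regions, each panel titled by its nearest coding start. Red bars are the 12 and 24 h peaks that define the region and grey bars are other peaks. The regions near Slit2 and Tab3 stand alone, and those near Kitl, Zwint and Vopp1 lie among peaks of all 7 lists.

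The next 6 by rank were as follows. A region 6045 bp from B3galt1, the gene of a galactosyltransferase, had a −log10 q of 8.87 at 12 h and 14.6 at 24 h. The region 17367 bp from Nmt2, which encodes an N-myristoyltransferase, had the highest 12 h value of all, 25.5 from 34 reads, and 4.97 from 12 reads at 24 h. An exonic region of Rad54l, a gene of homologous recombination, had 10.7 and 11.5. An intronic region of 1600014K23Rik on the X chromosome also had 10.7 and 11.5 as well, from the same 20 and 19 reads (chrX:82510064-82510486), on the same chromosome as the region near Tab3. A region 298843 bp from Sulf1, the gene of an extracellular heparan sulfate sulfatase, had 11.7 and 10.5. An intronic region of March11, which encodes a ubiquitin ligase, had 9.78 and 12.1.

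Individual regions could differ widely between the 2 times. The largest rises in fold enrichment were in a region 8859 bp from Mpv17l (2.99 at 12 h and 7.03 at 24 h, from 9 and 19 reads), an intronic region of Ipcef1 (2.99 and 6.76, from 9 and 19 reads), and a region 1402862 bp from any coding start, nearest to Amy2a5 (2.69 and 5.97, from 8 and 16 reads). The largest falls were in an intronic region of Fam154a (6.55 and 2.8, from 21 and 8 reads), in an intron of Inpp4b, which encodes a phosphoinositide phosphatase (8.08 and 3.51, from 26 and 9 reads), and in the region near Nmt2 (10.5 and 4.57). Each rests on a single pooled library per time, so whether a change exceeds replicate error could not be assessed.

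The regions lay far from the starts of coding genes. Of the 2082, 98 (4.71%, exact 95% interval 3.84 to 5.71) came within 1 kb of a protein-coding start, against 7.58% (7.06 to 8.13) in the 9566 regions of the other 20 pairs and 14.5% of all regions. Regions of 12 h alone had 5.9% (5.41 to 6.42), an overlapping interval. By pair, only normoxia and 24 h had a lower share (3.21%). Near shares were 5.26% for 6 and 72 h, 5.69% for 24 and 48 h and 5.75% for normoxia and 12 h. The median distance of the 2082 regions to a coding start was 39120 bp (36000 to 42959), against 24975 bp (24138 to 25986) in the other pairs, 22449 bp in the 48 and 72 h pair and 13559 bp in regions of all 7 lists. Among the 21 pairs this was the second longest, after normoxia and 24 h at 43122 bp in 343 regions. Pairs of 24 h with 6, 36, 48 or 72 h had medians between 31373 and 34949 bp. The regions of the 12 h list alone, whose median −log10 q was 3.25 against 5.1 for the stronger peak of the 2082 regions, had a median distance of 33010 bp (31540 to 34406). By summit, 828 (39.8%) were intronic, 50 (2.4%) exonic and 1106 (53.1%) intergenic, against 41.6%, 3.31% and 47.5% in the other pairs. More than 50 kb separated 932 regions (44.8%) from any coding start, and more than 500 kb separated 116 (5.57%), against 33.9% and 3.05% in the other pairs. These intervals cover counting error only, since regions of 1 genome and 1 set of libraries are not independent replicates.

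They were also low in GC content. Within 100 bp of the summit the median was 44.8% (44.3 to 45.3), against 47.3% in the other pairs, 46.3% in regions of 12 h alone and 51.2% in regions of all 7 lists. By pair, 24 and 72 h had the same median of 44.8%. Normoxia and 24 h had 45.3% and 24 and 48 h had 45.8%. No CpG was found in that window in 21.6% of the regions and in 18% of the other pairs. The 98 promoter regions had a median GC content of 55.2%. By chromosome, the regions made up between 1.51% (chromosome 15) and 2.71% (chromosome X) of all merged regions, apart from the Y chromosome, where 9 regions were found in all and 0 of this kind. The X chromosome held 72 of them, 3.46%, against 2.44% of all regions.

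The promoter regions were individually weak, with a median −log10 q of 3.96 at 12 h and 3.38 at 24 h, and 17 of the 98 lay within 1 kb of a region of all 7 lists. The strongest by rank overlapped a start of Sugp2 (chr8:72781307-72781686), a gene for a protein with SURP and G-patch domains, with a −log10 q of 15.6 at 12 h and 6.7 at 24 h. The next covered a start of Srgap2 with 8.87 and 11.5. Starts of Clca4 (8.87 and 7.56), Adam22 (9.09 and 6.99), Adck4 (8.3 and 6.7) and H2-M2 (7.13 and 7.6) followed. The other 2 of the leading 8, at Fez1 and Tubb5, were close to regions of all 7 lists. The region 289 bp from the Fez1 start (6.98 and 8.11) was 177 bp from such a region. The region at Tubb5, a beta-tubulin gene (8.54 and 6.14), was 810 bp from one, and it had 51 and 40 reads on a local background of 17.5 and 14.2 reads with a fold of only 2.81 and 2.7.

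Few genes held several of the regions. A summit fell in the annotated body of 808 protein-coding genes, of which 95 had 2 or more and 3 had 4 or more. Fgfr2, a fibroblast growth factor receptor gene, had 8 of the 169 regions within its annotated body, but this annotation spans 3010 kb and overlaps 32 other coding genes. Only 4 of the 8 had Fgfr2 as the nearest start, at 12660, 16343, 21848 and 113072 bp. Gas7 had 4 of 21 regions over 234 kb, and Macrod2, which encodes an ADP-ribosyl hydrolase, had 4 of 119 over 2000 kb. Of the 16 genes with 3 regions, those of the shortest span are given. Col8a1, a collagen gene, had 3 of 16 over 130 kb, all 3 with an AP-1 sequence and the strongest with a −log10 q of 9.74 at 12 h and 7.79 at 24 h. Pappa, the gene of a metalloproteinase that cleaves insulin-like growth factor binding proteins, had 3 of 12 over 233 kb, the strongest with 10.6 and 7.45. These genes were picked from the 808 for their counts, so their shares are high by selection beside the 1.91% of all merged regions.

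Genes of hypoxia and of other chosen pathways had about as many of these regions as genes did in general. A region lay within 10 kb of the body of 1153 of 22225 coding genes, 5.19%. For the 10 chosen lists together the count was 9 of 162 genes, 5.56%. Of 40 HIF target genes 3 had one. The region at Hk2, the gene of hexokinase 2, was 10218 bp from its start with a −log10 q of 3.25 at 12 h and 1.32 at 24 h. An intronic region of Pfkp, a phosphofructokinase gene, had 5.11 and 4.06 and an AP-1 sequence. An exonic region of Ndrg1, a gene induced by low oxygen in many cells, had 1.69 and 3.24, also with an AP-1 sequence. None of these 3 carried a HIF core near its summit.

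The count within 10 kb was 0 of 10 HIF subunits and oxygen sensors, 0 of 11 AP-1 subunit genes, 0 of 15 stress response genes and 0 of 14 circadian clock genes. These lists are short beside a share of 5.19% in all genes, and within 50 kb the counts were 1 of 10 (Hif1a), 3 of 11 (Fos, Fosl1 and Jund), 2 of 15 (Ddit3 and Hmox1) and 1 of 14 (Rora), beside 11.1% of all coding genes. Among 18 epithelial genes, Cdh1 (E-cadherin) had an intronic region with a −log10 q of 5.21 and 4.16. Among 18 genes of mesenchymal transition, Zeb2, a repressor of E-cadherin, had an intronic region (6.3 and 3.38) and Tgfbr2, a TGF-beta receptor gene, had one 6267 bp from its start (7.51 and 4.27) with HIF and AP-1 sequences. Of 16 cell cycle genes, E2f2 had a region 82 bp from its start (1.99 and 3.38). In the marker lists, Itgam, 1 of 10 immune genes, had an intronic region (3.96 and 3.38), and Kdr, the VEGF receptor 2 gene and 1 of 12 fibroblast and endothelial genes, had one of 11.4 at 12 h and 3.01 at 24 h with HIF and AP-1 sequences. At 50 kb in place of 10 kb the lists together had 19 of 162 genes (11.7%), beside 2465 of the 22225 coding genes.

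The AP-1 sequence was the most frequent of the longer sequences searched. It was counted as TGACTCA or its reverse complement within 100 bp of the 24 h summit (for regions of other kinds, within 100 bp of their strongest summit). It was present in 709 regions, 34.1% (exact 95% interval 32.0 to 36.1), against 27.2% (26.3 to 28.1) of the other 20 pairs, 28.1% (27.2 to 29.1) of regions of 12 h alone, 31.2% of all regions and 37.8% of regions of all 7 lists. Among the 20000 strongest peaks of every list the difference from the other pairs was only 0.979 percentage points (40.4% of 156 regions against 39.4%). These 156 were a separate set, with none among the regions of 12 and 24 h in the deposited lists. Over 1 kb from coding starts the share in the deposited lists was 35.0% (32.9 to 37.2) for 12 and 24 h and 28.1% (27.1 to 29.0) for the other pairs. All regions at that distance had 34.6% (34.3 to 34.9), close to the regions of 12 and 24 h, and regions of all 7 lists had 49.7%. Below 55% GC the share was higher than in the other pairs in each of 4 bins, for example 37.6% against 30.8% between 40 and 45% GC, while above 55% GC it was 16.3% against 17.3%. Against all regions it was not higher throughout, with 36.1% against 36.5% between 45 and 50% GC and 30.2% against 33.3% between 50 and 55%. Among regions whose stronger peak was under a −log10 q of 5 it was 32.4% (29.5 to 35.3) against 25.4% (24.2 to 26.6) in the other pairs. Between 5 and 10 it was 35.2% (32.1 to 38.4) against 29.0% (27.6 to 30.4), but regions of 12 h alone had 35.1% (32.7 to 37.5) there. At 10 or more the intervals overlapped, with 38.7% (30.7 to 47.3) and 35.4% (30.0 to 41.1).

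Pair by pair, the share of 12 and 24 h was the highest of the 21, but the intervals of 10 of the other 20 pairs overlapped its own. The pair of 12 and 48 h had 32.6% (30.4 to 34.8), 24 and 48 h had 31.9% (28.7 to 35.2), and normoxia and 12 h had 29.6% (27.0 to 32.4). Pairs of late times were lowest among those of over 300 regions, with 20.6% (18.3 to 23.0) for 48 and 72 h, 20.3% (16.7 to 24.3) for 36 and 48 h, and 16.5% (12.9 to 20.7) for 36 and 72 h. AP-1 matches were concentrated around the summit. Per 25 bp bin, 5.58% of the regions had a match within 50 bp of the summit and 0.51% at 150 to 250 bp, a ratio of 10.9, against 9.82 in the other pairs and 13.6 in regions of all 7 lists.

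**Figure D4:**
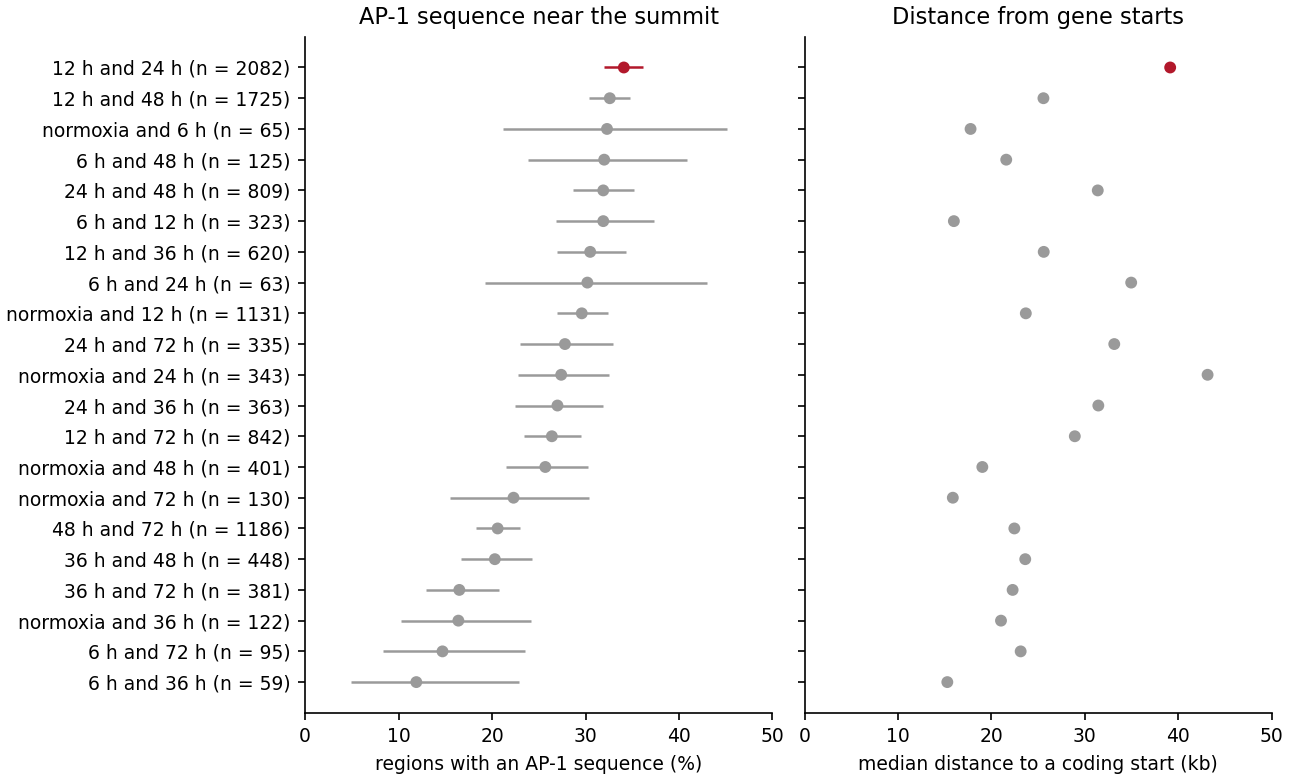
Left, share of regions with an AP-1 sequence within 100 bp of the summit for each of the 21 pairs of lists, with exact 95% intervals (bars). Right, median distance to the nearest protein-coding start in kb. The pair of 12 and 24 h (red) has the highest AP-1 share, 34.1%, where the intervals of 10 other pairs overlap it, and the second longest distance.

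The HIF core, ACGTG or GCGTG on either strand, was less frequent than in the pool of the other pairs. It was found in 350 regions, 16.8% (15.2 to 18.5), against 19.8% (19 to 20.6) of the other pairs, 18% (17.2 to 18.9) of regions of 12 h alone, 23.6% of all regions and 31.7% of regions of all 7 lists. By pair the nearest shares were 16.9% for normoxia and 72 h, 17.6% for 24 and 72 h and 17.9% for 24 and 48 h, and the intervals of 16 of the other 20 pairs overlapped that of 12 and 24 h. The core holds a CpG, and within 3 bins of GC content under 50% the share was near that of the other pairs, for example 18.7% against 19.2% between 45 and 50% GC. Its matches hardly followed the summit, at 2.58% per bin within 50 bp and 2.02% at 150 to 250 bp, a ratio of 1.28. In the 241 regions with a −log10 q of 5 or more at both times, 15.4% (11.0 to 20.5) had a HIF core and 38.6% (32.4 to 45.1) an AP-1 sequence. With every list cut to its 20000 strongest peaks, a separate set of 156 regions had a HIF share of 26.3% (19.6 to 33.9). None of these was among the regions of 12 and 24 h in the deposited lists.

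**Figure D5:**
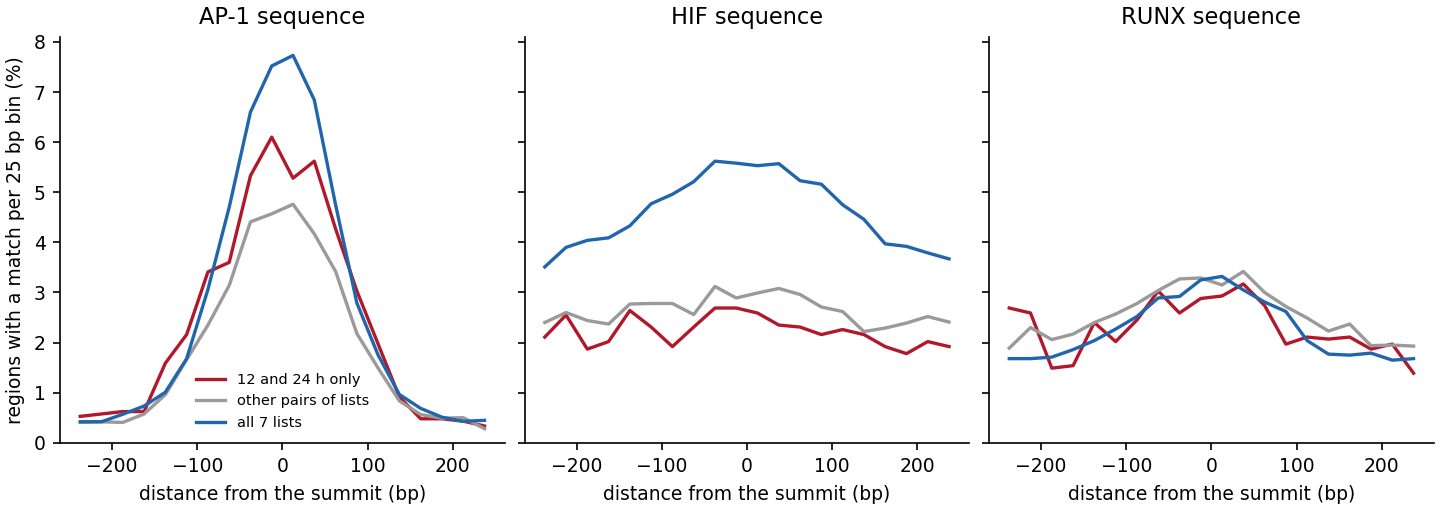
Share of regions with a match whose centre falls in each 25 bp bin (vertical axis, %) by distance from the summit in bp, for AP-1, HIF and RUNX sequences. Lines are the regions of 12 and 24 h only (red), the other 20 pairs of lists (grey) and the regions of all 7 lists (blue). AP-1 matches are concentrated around the summit in all 3 kinds, and HIF and RUNX matches are spread more evenly.

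Of the other 16 sequences, CTCF, the insulator factor's site, was less frequent than in the pool of the other pairs. It matched 44 regions, 2.11% (1.54 to 2.83), against 4.87% (4.45 to 5.32) of the other pairs, and the pairs of normoxia and 12 h and of normoxia and 24 h had 7.34% and 6.71%. The share was the fourth lowest of the 21 pairs, after 6 and 72 h (0.0%), 36 and 72 h (1.31%) and 6 and 24 h (1.59%), and 10 of the other 20 intervals overlapped it. Regions of 12 h alone had 3.49% (3.11 to 3.9) and regions of all 7 lists 3.02% (2.85 to 3.21). Over 1 kb from a coding start the CTCF share was 2.07% (1.49 to 2.79), close to the 2.19% (2.01 to 2.37) of regions of all 7 lists. The other pairs had 4.85% (4.41 to 5.32) there. The myogenic-type E-box CAGCTG was in 9.65% (8.42 to 11.0) against 12.6% (11.9 to 13.3) of the other pairs. Its share varied with GC content. Under 40% GC it was higher than in the other pairs, 5.94% against 4.8%. It was 7.28% against 8.97% between 40 and 45% GC, and 11.1% against 12.1% between 45 and 50%. It was 15.1% against 16.8% between 50 and 55% GC and 14.7% against 21.6% above that. By pair, 24 and 36 h (7.99%) and normoxia and 24 h (8.16%) had lower shares. GGGCGG, bound by SP and KLF factors, was in 4.18% (3.36 to 5.13) against 5.97% (5.5 to 6.46) of the other pairs, and was not compared within bins of GC content. Regions of 12 h alone had 12.3% (11.6 to 13.0) for the E-box and 3.83% (3.44 to 4.26) for GGGCGG. For RUNX (TGTGGT) the shares of the 2082 regions and the other pairs were 19.5% (17.8 to 21.2) and 21.8% (21.0 to 22.6), and for ETS (CCGGAA) 2.26% (1.66 to 2.99) and 3.05% (2.72 to 3.42), with intervals that overlapped. For C/EBP (TTGCNNAA) 8.55% and 9.57%, FOX (TGTTTAC) 3.27% and 3.74%, TEAD (GGAATG) 15.8% and 15.9%, the CCAAT box of NF-Y 25.1% and 24.5%, and Pitx (TAATCC) 6.72% and 5.79%, they overlapped too. CREB, E2F, NFI and the octamer each matched under 2% of the regions. GRHL (AACCNGGTT) and p53 matched 0 of 2082, which allows a share of up to 0.177% by the exact interval. Both were rare everywhere, at 0.145% and 0.0846% of all regions, 0.199% and 0.188% of the other pairs and 0.0583% each of regions of 12 h alone. No sequence of the 18 was found in 356 regions (17.1%). Both strands were searched for every sequence, matches of different sequences may share bases, and a match says only that these letters are there.

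Many of the regions had peaks of other times nearby. A peak of 1 of the other 5 lists lay within 1 kb of 313 regions, 15% (13.5 to 16.6), and within 10 kb of 1298, 62.3% (60.2 to 64.4). For regions of 48 and 72 h only, the corresponding shares, with peaks of the 5 lists that lacked those regions (12 and 24 h among them), were 20.6% (18.3 to 23.0) and 75.7% (73.2 to 78.1). Another region of 12 and 24 h only started within 100 kb of 400 regions (19.2%), a share that was not computed for other kinds of region.

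How much an absent peak could show differed between the lists that lacked these regions, since signal over background did. The genome-wide background ran from 0.926 reads in normoxia to 3.25 in the 6 h list, with 2.34 and 1.85 in the 12 and 24 h lists. The summits of regions in all 7 lists stood a median of 28.1 times above it in normoxia but only 9.53 times at 6 h. Scaling each region's 12 and 24 h reads by the regions of all 7 lists gave the reads it would have had if equally open. The median was 7.3 in normoxia, where the weakest called peak had 5 reads, and 99.0% of the regions reached that number. For 48 h the median was 12.6 reads with 9 needed, and 98.0% reached them. Shares fell to 82.7% for 36 h (median 9.49 reads, 8 needed) and to 62.4% for 72 h (median 9.68, 9 needed). In the 6 h list the median was 8.65 with 11 needed, and 18.3% reached it. For most of the regions the reads expected of an equally open site were thus fewer than the 11 needed in the 6 h list. These expectations run high, since the 12 and 24 h reads were selected for having been called, and reads vary around them. For the leading 12 regions the expected reads at 6 h were 13.7 (near Sulf1) or more. The number needed was that of peaks at the genome-wide background, where 70.8% of the regions lay at 12 h and 69.9% at 24 h. It does not apply to regions on a raised local background, such as those near Kitl and Vopp1. Such regions were counted in the shares above all the same.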

How the data were processed

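Bulk ATAC-seq of 4T1 cells in normoxia and at 6 hypoxia times (2 samples each, grouped by the labels) was analysed from 7 peak lists, 1 per group. The authors' steps, from the methods and the notes deposited with the samples, were adapter trimming, alignment to mm9 (Bowtie2 2.1.0), removal of duplicate (Picard 1.79) and mitochondrial reads, pooling of both replicates and narrow peak calling with MACS2 (version not given in the sources used here). The deposited lists give each summit's fold enrichment over local background, its −log10 p and −log10 q, and its offset. Their lowest −log10 q fits a q of 0.05, where the methods state 0.01 for bulk data, and no depth is given. Peaks were called without a model and with a shift of 0, per the methods.

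Intervals were merged as described above in Python 3.11.15 (pandas 2.3.3, pysam 0.24.0). Where an interval had several summits, the one with the highest −log10 q was used. Reads at a summit and the local background were solved from the deposited fold and −log10 p, and whole reads met both within 0.001 for 100% of the peaks. Genes came from GENCODE M1 and sequence from NCBIM37, the assembly of mm9. Intervals are exact (Clopper-Pearson for shares, order statistics for medians, scipy 1.17.1), at 95%, and cover counting error only. No p-value was computed. Named regions are the 12 strongest, the 8 strongest at promoters, all within 10 kb of a listed gene, the 5 genes with most regions, the 3 largest changes each way and the strongest with HIF, AP-1, CTCF and C/EBP sequences. The regions, gene lists and sequences were chosen with earlier results of these data known. Merging, sequence search and read recovery were tested on simulated data. Alternatives covered stricter thresholds, equal list lengths, other merging, windows and distances.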

Additional observations from a re-analysis of the deposited data

How the results depend on the processing

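The count of 2082 stayed within 1.5 times under a −log10 q of 2, other merging, autosomes only and leaving out the normoxia, 6, 36 or 72 h list, and became 3569 without the 48 h list. Cutting every list also removed weaker peaks of the other 5 lists, so regions found that way need not be among the 2082. With a −log10 q of 5 or more in every list there were 1335 regions (6.14% near a start, strength 7.99 and 7.24, summits 45 bp apart, 13% with another list's peak within 1 kb, AP-1 share 38.5%). Most of these were not among the 2082, of which 241 reached 5 at both times. With that value asked at 12 and 24 h alone there were 241, all of them among the 2082 (34.4% intronic, 44414 bp from a start, GC 43.8%, strength 7.13 and 6.84, summits 45 bp apart, 18.7% near another list's peak, 0 listed genes, AP-1 38.6%). With every list cut to the length of the 6 h list there were 483 (44768 bp, strength 10.4 and 7.6, 43 bp, 7.25%, 1 listed gene, AP-1 38.1%), and with the 20000 strongest peaks 156 (12.8% near a start, 28.2% intronic, 34477 bp, GC 45.8%, strength 34.4 and 26.6, 24 bp, 3.21%, 1 listed gene, AP-1 40.4%). None of the 156 was among the 2082, whose highest 12 h value, 25.5, was exceeded by 28.3% of the 12 h list. The AP-1 share exceeded that of the other pairs by 6.82 percentage points and by 6.75 to 8.51 under 10 alternatives, but by 0.979 among the 20000 strongest peaks and 4.31 within 50 bp of the summit. The share of 12 and 24 h among regions of exactly 2 lists, 17.9%, was 16.5% and 16.7% at a −log10 q of 2 and of 5 or more, 6.84% at equal list lengths and 5.75% with the 20000 strongest peaks. Both of these measures, and the use of the stronger summit, of distal or of weak regions for AP-1, were chosen after seeing the data. Definitions moved values as follows: 12.8% within 5 kb of a start, 26247.5 bp to any annotated start, GC 44.1% and AP-1 41.4% over the whole region, AP-1 21% within 50 bp, 11.7% near another peak when merging over 200 bp and 62.3% within 10 kb, and 19 listed genes within 50 kb. Scaling by the weaker regions of all 7 lists changed the share reaching the needed reads to 97.5% for normoxia and to 35.6%, 89.9%, 100% and 84.6% for the lists of 6, 36, 48 and 72 h. Of 170 values for the other 17 sequences 52 moved beyond the interval, 26 of them with the window. The cause of these shifts was not tested.

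No paired analysis was possible because each list merges both replicates of its group, and leaving out a replicate could not be done for the same reason. Repeat coverage was not run, since the reference used here marks no repeats.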
